A study of Mus musculus with 15 samples.

Results

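Among the genes measured by RNA-seq in mouse bone marrow-derived macrophages (BMDMs), 10 that encode non-collagen proteins of the extracellular matrix are described here: *Spp1*, *Sparc*, *Fn1*, *Thbs1*, *Tnc*, *Bgn*, *Dcn*, *Lum*, *Postn* and *Fbn1*. These genes are a chosen list, and further genes of this kind were measured. They were taken by name from the expression table, which holds 20089 complete gene entries, and all 10 were found. The cells came from the marrow of wild-type C57BL/6 mice and were grown in M-CSF, the growth factor that keeps macrophages and their precursors alive, for 3 days by the submitters' design text and for 4 days (50 ng/mL) by the study's general methods. There were 5 groups of 3 libraries: control cells with M-CSF only, and cells that also received RANKL or LPS, each at 100 ng/mL, for either 4 h or 72 h. RANKL drives the precursors into bone-resorbing osteoclasts, whereas LPS, a bacterial cell wall component, drives them into an inflammatory state, and the comparison was set up to separate genes that respond to RANKL from genes that respond to either stimulus. A control kept for 72 h is not named, so time under a stimulus and time in culture cannot be told apart. The labels do not say whether the 3 libraries of a group came from separate mice or cultures, so the p-values measure the spread between these libraries, which may be technical.

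Non-collagen matrix proteins sit between the collagen fibres and the cell surface. Some build or organise fibres (fibronectin from *Fn1*, fibrillin-1 from *Fbn1*), some are small leucine-rich proteoglycans that bind collagen and growth factors (biglycan, decorin and lumican from *Bgn*, *Dcn* and *Lum*), and others are matricellular proteins, which act on cells more than they bear load (osteopontin from *Spp1*, SPARC or osteonectin, thrombospondin-1, tenascin-C, periostin). In bone, osteopontin is made by osteoblasts and osteoclasts and anchors the resorbing osteoclast through integrins, while most of the others are known as products of osteoblasts, fibroblasts and other mesenchymal cells. Macrophages are known to make osteopontin, fibronectin and thrombospondin-1 as well.

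Expression is given as FPKM, the fragments of a gene relative to its exon length and to the mapped reads of the library, so that levels can be set side by side between genes. Fragments on listed genes numbered 18306184 to 20330207 per library. The summed level of 10 macrophage markers (led by *Lyz2*, *Ctss* and *Cd68*) was 9655 to 23207 FPKM in the 15 libraries, and none was at 0 throughout a group. The summed level of 10 osteoclast markers was 155 to 280 FPKM in control libraries and 1721 to 5474 FPKM after RANKL for 72 h. Of the 10, 9 were called higher there, beside 24.2% of all tested genes called. Markers of other cells were present too: 18 stromal genes (led by *Col1a1* and *Col1a2*, none of them among the 10 matrix genes) summed to 155 to 342 FPKM in control libraries and 416 to 1876 FPKM after RANKL for 72 h. In bulk RNA, fewer cells of a type and less RNA per cell cannot be told apart, nor can more cells and more RNA.

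The matrix genes differed widely in abundance. *Spp1* was among the most abundant transcripts of these cells, with a group mean of 818 to 1542 FPKM that ranked between 28 and 46 among the 20089 genes. *Thbs1* followed with 164 to 787 FPKM, and *Sparc*, *Bgn*, *Fn1*, *Tnc*, *Postn* and *Fbn1* lay between 2.93 and 182 FPKM in their group means. *Dcn* stayed between 0.700 and 4.42 FPKM. *Lum* was at the edge of detection, with 0 to 29 fragments per library and no fragment in 2 libraries. Of the summed FPKM of the 10 genes, *Spp1* made up 67.8 to 87.0% in control libraries, 44.7 to 82.0% in RANKL 72 h and 37.1 to 52.5% in LPS 72 h. In LPS 72 h *Thbs1* made up 38.4 to 54.9% of it, against 9.32 to 20.4% in control, and in RANKL 72 h the 8 genes other than *Spp1* and *Thbs1* made up 13.0 to 37.9%, against 3.65 to 11.8% in control.

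**Figure D1:**
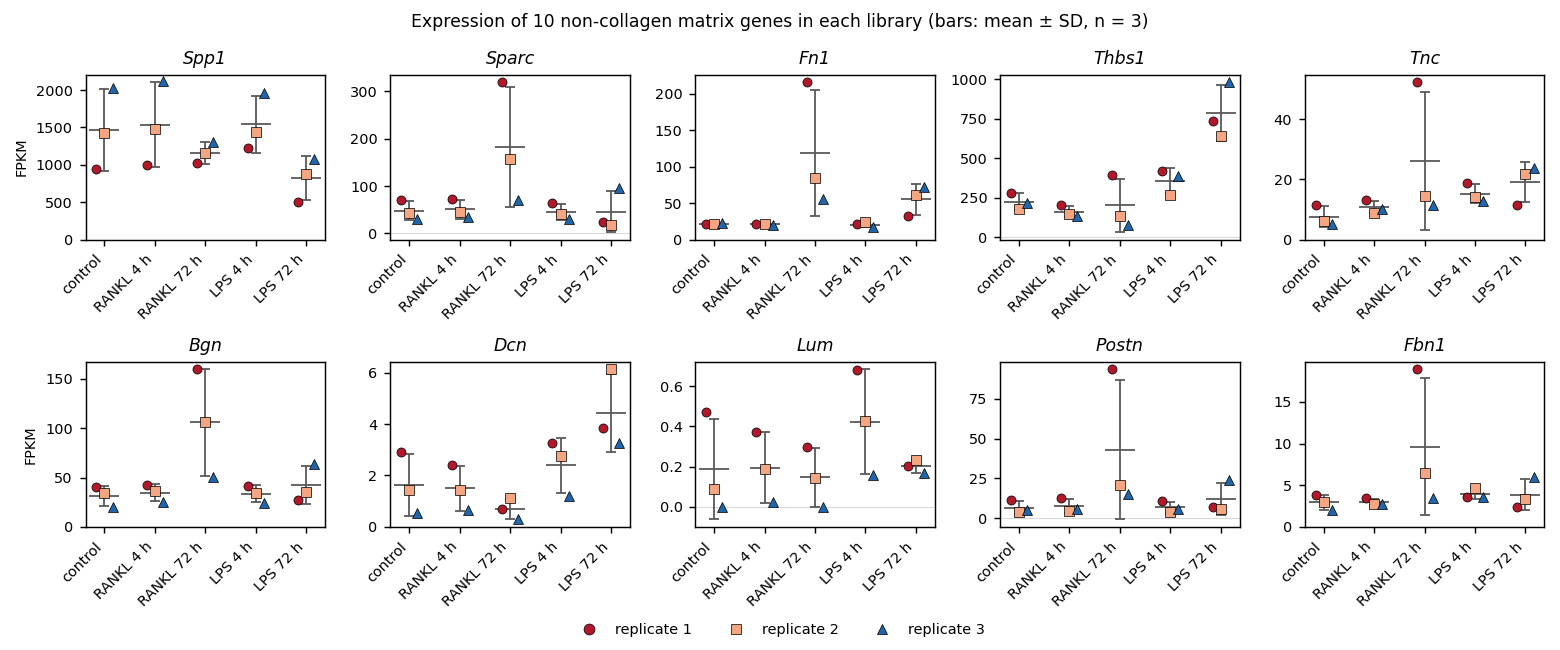
FPKM (linear axes, 1 scale per gene) of the 10 matrix genes in each of the 15 libraries by group, with the replicate number as symbol and colour and the mean ± SD of 3 libraries as grey bars. *Sparc*, *Fn1*, *Tnc*, *Bgn*, *Postn* and *Fbn1* are highest in RANKL 72 h replicate 1, *Thbs1* and *Dcn* are highest in LPS 72 h, and *Spp1* is highest in replicate 3 of every group.

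A gene was called higher or lower when its fold change was above 1.5 or below 0.66 and its adjusted p was under 0.05 (limma, Benjamini-Hochberg over the 11743 tested genes). Fold changes are on the scale of log2(FPKM + 0.1), which understates the change of low genes such as *Lum*. After RANKL for 4 h, 0 of the 10 matrix genes were called by limma, against a background of 0.119% of all tested genes, and the count stayed at 0 with unadjusted p-values (2.56% of all genes) and with voom on the recovered fragments (0.119%). After RANKL for 72 h, 6 of the 10 rose (*Postn*, *Fn1*, *Sparc*, *Bgn*, *Tnc* and *Fbn1*) and 0 fell, where 24.2% of all tested genes were called, 1951 of them higher and 886 lower. With unadjusted p-values (29.2% of all genes) and with voom (24.8%) the split was again 6 and 0. The count was 3 when each library was centred on its median gene (22.1%) and 3 with only these 2 groups in the fit (22.6%), *Sparc*, *Tnc* and *Fbn1* being lost in both. It was 2 without control replicate 2 or control replicate 3, 3 without RANKL 72 h replicate 1 (1 of them *Thbs1*, lower), and 4 to 6 without any other single library. The shares of all tested genes called with a library left out are not given here, so these counts have no background beside them. The median log2 fold change of the 10 genes was 1.45 at that time, and that of all tested genes 0.16.

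After LPS for 4 h, 0 matrix genes were called by limma, where 48.1% of all tested genes were called, 4660 of them lower. With unadjusted p-values 1 was called (*Tnc*; 49.8% of all genes) and with voom 0 (48.5%). The median of all tested genes lay at -0.52 in LPS 4 h, and that of the 10 matrix genes at 0.29. When each library was centred on its median gene, 2 were called higher, *Tnc* and *Thbs1*, beside 29.0% of all genes. After LPS for 72 h, 4 rose (*Thbs1*, *Dcn*, *Tnc* and *Fn1*) and 0 fell, where 27.4% of all tested genes were called. With voom the count was again 4 higher (27.3% of all genes), and with unadjusted p-values *Spp1* was called lower beside them (31.0%). *Dcn* and *Tnc* were lost, leaving 2, without a filter on low values (20.5%), when centred (26.4%) and without a trend (27.4%). The count was 1 without control replicate 2 or LPS 72 h replicate 2, 2 without control replicate 3, and 3 or 4 without any other single library. Here too the counts with a library left out have no share of all tested genes beside them. The median was 0.58 for the matrix genes and 0.08 for all tested genes.

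The stimuli were also compared with each other. At 4 h, 1 matrix gene was called lower in RANKL than in LPS (*Thbs1*), where 50.0% of all tested genes were called. At 72 h, 2 were higher in RANKL (*Sparc*, *Bgn*) and 2 in LPS (*Thbs1*, *Dcn*), where 36.1% were called. Between 4 h and 72 h of RANKL, 3 rose (*Fn1*, *Postn*, *Bgn*), where 23.3% were called, and between 4 h and 72 h of LPS, 2 rose (*Fn1*, *Thbs1*) and 1 fell (*Spp1*), where 58.1% were called. Counts of 1 to 4 among 10 genes lie near or under these backgrounds, and comparisons that share libraries are not independent of each other.

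**Figure D2:**
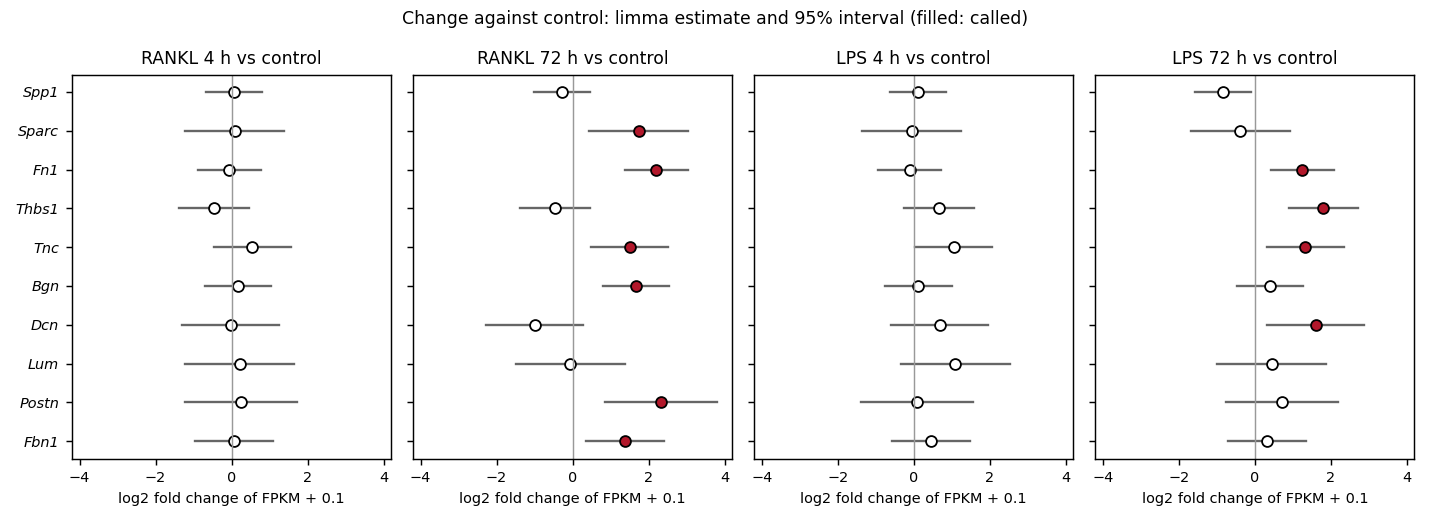
Log2 fold change of FPKM + 0.1 against control (horizontal axis, limma estimate) with its 95% interval for the 10 matrix genes, 1 panel per stimulus and time. Filled points passed the call: 6 genes in RANKL 72 h and 4 in LPS 72 h, with *Fn1* and *Tnc* in both.

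RefSeq start sites of GRCm38.p6 were matched by symbol for 6 of the 10 genes (*Spp1*, *Sparc*, *Tnc*, *Bgn*, *Postn* and *Fbn1*). The 250 bases before the start are printed for 3 of them: that of the most abundant gene, *Spp1*, that of *Bgn*, a proteoglycan that rose in RANKL 72 h, and that of *Postn*, the matricellular gene with the highest estimate there. Each reads 5′ to 3′ on the coding strand, and capitals mark a TATAAA (searched on this strand) or a TGTGGT, the core that RUNX factors bind (searched on both strands). The windows are chr5:104434861-104435110 (plus strand) for *Spp1*, chrX:73483351-73483600 (plus strand) for *Bgn* and chr3:54360857-54361106 (plus strand) for *Postn*, where the second of 2 listed starts was taken because it lies at the annotated start of the gene.
Spp1: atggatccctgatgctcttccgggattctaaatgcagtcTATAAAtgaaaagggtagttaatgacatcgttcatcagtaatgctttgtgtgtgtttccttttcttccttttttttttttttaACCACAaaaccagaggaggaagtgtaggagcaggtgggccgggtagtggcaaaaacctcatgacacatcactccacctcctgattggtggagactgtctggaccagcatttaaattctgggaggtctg
Bgn: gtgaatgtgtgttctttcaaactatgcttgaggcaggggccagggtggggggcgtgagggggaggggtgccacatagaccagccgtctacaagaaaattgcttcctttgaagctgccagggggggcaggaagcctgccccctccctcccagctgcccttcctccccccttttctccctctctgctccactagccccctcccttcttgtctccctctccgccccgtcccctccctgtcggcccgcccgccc
Postn: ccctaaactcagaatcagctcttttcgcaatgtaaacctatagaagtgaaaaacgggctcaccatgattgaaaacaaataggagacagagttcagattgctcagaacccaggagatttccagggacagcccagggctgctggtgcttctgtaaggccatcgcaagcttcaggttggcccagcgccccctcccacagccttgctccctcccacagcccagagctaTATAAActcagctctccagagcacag
The printed *Spp1* window holds TGTGGT on its reverse strand (printed as ACCACA) from 128 bases before the start and TATAAA from 211 bases before it. *Spp1* has a second listed start, whose window (chr5:104435942-104436191, plus strand) lies inside the gene, is not printed and holds neither. The *Postn* window holds TATAAA from 26 bases before the start, and the *Bgn* window holds neither. Over the 9 windows of the 6 genes, TGTGGT was found in 1 and TATAAA in 4 (the others being 2 overlapping windows of *Tnc*), against 14.0% and 7.59% of all 32851 windows of this length. TGANTCA (AP-1) and GGAATG (TEAD), on both strands, were found in none of the 9 and in 6.75% and 12.6% of all windows. The CArG box and the NF-kB motif were found in none of the 9 and in 1.47% and 3.90% of all. These are letter matches and not binding sites.

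*Spp1* encodes osteopontin and lies on chromosome 5 from 104435118 to 104441050 on the plus strand (positions here and below are of whole genes in GENCODE M21 on GRCm38). Its level was 939, 1430 and 2028 FPKM in control replicates 1, 2 and 3, 994, 1479 and 2126 FPKM in RANKL 4 h, and 1018, 1154 and 1306 FPKM in RANKL 72 h. In LPS it was 1225, 1433 and 1966 FPKM at 4 h and 497, 879 and 1078 FPKM at 72 h. The groups overlapped, except that every LPS 72 h library lay below every LPS 4 h library. Between those times of LPS *Spp1* fell by 0.96 ± 0.34 (log2, SE; adjusted p = 0.0241, limma), a call that was lost without LPS 4 h replicate 3 (-0.77, adjusted p = 0.0961) or LPS 72 h replicate 1 (-0.64, adjusted p = 0.127). Against control, the difference at LPS 72 h was -0.84 ± 0.34 and was not called (adjusted p = 0.0713, limma). It passed without control replicate 1 (-1.13, adjusted p = 0.0315) or LPS 72 h replicate 3 (-1.08, adjusted p = 0.0316). It also passed with the replicate number as a block in all 5 groups (-0.84, adjusted p = 0.00202, limma), although the numbers of LPS 72 h did not pair over all genes. At replicate numbers 1, 2 and 3 LPS 72 h was at 0.530, 0.615 and 0.531 times control. With RANKL for 72 h, osteopontin RNA was not called different from control, with an estimate of -0.28 and a 95% interval of -1.02 to 0.46. The order of its group means was LPS 4 h, RANKL 4 h, control, RANKL 72 h and LPS 72 h, and all neighbours in it overlapped.

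*Thbs1* encodes thrombospondin-1, a platelet, macrophage and stromal protein that activates latent TGF-beta, and lies on chromosome 2 from 118111876 to 118127133 (plus strand). It was at 282, 179 and 217 FPKM in control and at 737, 642 and 983 FPKM in LPS 72 h, where its mean ranked 50th among all genes. All 3 libraries of LPS 72 h lay above all 12 others. The rise over control was 1.80 ± 0.43 (log2, SE; adjusted p = 0.00519, limma) and was called under every alternative tried. LPS 4 h gave 418, 269 and 388 FPKM, overlapping with control (0.67 ± 0.43, adjusted p = 0.193, limma). The further rise from LPS 4 h to 72 h was 1.14 (adjusted p = 0.0294, limma), which was lost without LPS 4 h replicate 2 (0.94), LPS 72 h replicate 1 (1.17) or LPS 72 h replicate 3 (0.97) and was 0.49 (adjusted p = 0.367) when libraries were centred on the median gene.

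Under RANKL *Thbs1* took no such course. It was at 204, 149 and 138 FPKM at 4 h and at 396, 134 and 79.7 FPKM at 72 h, so that RANKL 72 h replicate 1 lay above every control library and the other two lay below. The difference from control was -0.46 ± 0.43 at 72 h (adjusted p = 0.437, limma), and without RANKL 72 h replicate 1 it became a call at -1.10 (adjusted p = 0.0145). RANKL 72 h was lower than LPS 72 h by -2.26 ± 0.43 (adjusted p = 0.000736, limma), with no overlap and under every alternative tried. At 4 h RANKL was lower than LPS by -1.13 (adjusted p = 0.0339, limma), again without overlap, but the call was lost when any of RANKL 4 h replicates 2 and 3 (-1.07 and -1.01) or LPS 4 h replicates 1 and 3 (-1.001 and -1.06) was left out, and without a filter on low values (adjusted p = 0.0531).

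Because *Thbs1* is a platelet gene too, the 8 megakaryocyte and platelet markers are given. Of these, 6 were called lower in LPS 72 h than in control and 7 in RANKL 72 h, beside 27.4% and 24.2% of all tested genes called. *Pf4*, the most abundant of them, was not called in either. It was at 568, 693 and 602 FPKM in control libraries and at 428, 743 and 2110 FPKM in LPS 72 h, so that its highest library, LPS 72 h replicate 3, was also the highest for *Thbs1*. The summed level of the 8 markers, most of it *Pf4*, was 667 to 784 FPKM in control and 441, 756 and 2158 FPKM in LPS 72 h. Without LPS 72 h replicate 3 the rise of *Thbs1* was 1.63 and still called (adjusted p = 0.0165, limma). The part of platelets in the *Thbs1* result was not tested.

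*Fn1* encodes fibronectin, the adhesive protein on which integrins assemble fibres (chromosome 1 from 71585520 to 71653200, minus strand). Of the 10 genes it had the tightest baseline: control libraries were at 21.9, 21.2 and 22.3 FPKM, with 21.9, 20.7 and 20.4 FPKM in RANKL 4 h, and 20.9, 23.5 and 16.8 FPKM in LPS 4 h. At 72 h it was at 217, 84.2 and 55.2 FPKM with RANKL and at 31.6, 60.6 and 72.7 FPKM with LPS. Each of these 6 libraries lay above all 9 of the control and 4 h groups. The rise over control was 2.20 ± 0.39 with RANKL (log2, SE; adjusted p = 0.000997, limma), or 4.58-fold, and it was called under every alternative tried, with a lowest estimate of 1.33. Between 4 h and 72 h of RANKL the rise was 2.25 (adjusted p = 0.000918, limma), also called throughout.

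With LPS for 72 h the rise of *Fn1* over control was 1.25 ± 0.39 (adjusted p = 0.0224, limma). It was not called without control replicate 1 (adjusted p = 0.0518), control replicate 2 (0.0575), LPS 72 h replicate 2 (0.0773) or LPS 72 h replicate 3 (0.0716), with estimates of 1.003 to 1.25. RANKL 72 h and LPS 72 h overlapped, and their difference of 0.95 ± 0.39 was not called (adjusted p = 0.0583, limma), with a 95% interval of 0.12 to 1.78. It passed without RANKL 72 h replicate 3 (1.38, adjusted p = 0.00859) or LPS 72 h replicate 3 (1.19, adjusted p = 0.0317).

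*Sparc* encodes osteonectin, a calcium- and collagen-binding protein abundant in bone (chromosome 11 from 55394500 to 55423183, minus strand). Control libraries were at 70.9, 43.6 and 30.2 FPKM and RANKL 72 h libraries at 319, 157 and 70.5 FPKM. The 4 h groups lay on the control range, with 72.6, 44.1 and 34.98 FPKM for RANKL and 64.2, 41.5 and 31.4 FPKM for LPS, and LPS 72 h was at 23.97, 18.3 and 95.2 FPKM. RANKL 72 h replicate 3 lay just under control replicate 1, so these groups overlapped, but at each replicate number RANKL 72 h was the higher, by 4.50, 3.59 and 2.34 times. The rise was 1.74 ± 0.61 (log2, SE; adjusted p = 0.0430, limma). It was lost without control replicate 2 (adjusted p = 0.0932), control replicate 3 (0.128), RANKL 72 h replicate 1 (1.21 on the log2 scale, adjusted p = 0.174) or RANKL 72 h replicate 2 (0.0931). It was lost too without a filter on low values (adjusted p = 0.0616), when centred (0.0901), with only the 2 groups in the fit (0.0510) and without a trend (0.0546). Against LPS 72 h, *Sparc* was higher in RANKL 72 h by 2.13 (adjusted p = 0.0110, limma), which was lost without RANKL 72 h replicate 1 (1.60, adjusted p = 0.0573) or LPS 72 h replicate 2 (1.67, adjusted p = 0.0584), or with only the 2 groups in the fit (0.0535). These groups overlapped, as LPS 72 h replicate 3 (95.2 FPKM) lay above RANKL 72 h replicate 3 (70.5 FPKM).

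*Bgn* encodes biglycan, a small proteoglycan of bone and other connective tissue that also binds Toll-like receptors (chromosome X from 73483602 to 73495933, plus strand). Control libraries were at 40.2, 34.3 and 19.8 FPKM and RANKL 72 h libraries at 160, 107 and 50.9 FPKM, with no overlap. The remaining groups ranged from 24.6 to 64.1 FPKM together, and each overlapped with control. The rise over control was 1.66 ± 0.41 with RANKL for 72 h (log2, SE; adjusted p = 0.00784, limma), and it was called with any single library left out. From RANKL 4 h to 72 h it was 1.49 (adjusted p = 0.0149, limma), lost without RANKL 4 h replicate 3 (1.29) or RANKL 72 h replicate 1 (1.12). The difference from LPS 72 h was 1.26 (adjusted p = 0.0211, limma) and was lost without either of RANKL 72 h replicates 1 and 2 (0.89 and 1.18) or LPS 72 h replicates 1 and 2 (1.005 and 1.18), or with only the 2 groups in the fit (adjusted p = 0.0644). These groups overlapped, as LPS 72 h replicate 3 (64.1 FPKM) lay above RANKL 72 h replicate 3 (50.9 FPKM).

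*Postn* encodes periostin, a matricellular protein of the periosteum and of healing tissue (chromosome 3 from 54361109 to 54391037, plus strand). Control libraries were at 11.4, 3.86 and 5.09 FPKM, with levels at 13.0, 4.86 and 6.16 FPKM in RANKL 4 h and at 93.4, 20.8 and 14.97 FPKM in RANKL 72 h. LPS 4 h (10.9, 4.22 and 5.97 FPKM) and LPS 72 h (7.29, 5.78 and 23.8 FPKM) overlapped with control. RANKL 72 h did not, and its replicate 1 stood far above the other two. The rise was 2.32 ± 0.69 (log2, SE; adjusted p = 0.0207, limma), the highest estimate among the 10 genes and also the one with the widest error. It was lost without control replicate 2 (2.001, adjusted p = 0.0759), control replicate 3 (2.19, adjusted p = 0.0552) or RANKL 72 h replicate 1 (1.52, adjusted p = 0.0908). From RANKL 4 h to 72 h the rise was 2.06 (adjusted p = 0.0370, limma), lost without RANKL 4 h replicate 2 (1.77), RANKL 4 h replicate 3 (1.94) or RANKL 72 h replicate 1 (1.26), without a filter on low values (adjusted p = 0.0539), when centred (0.0701) and with only the 2 groups in the fit (0.0615).

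*Tnc* encodes tenascin-C, an adhesion-modulating glycoprotein of injured tissue (chromosome 4 from 63959785 to 64047015, minus strand). Its mean was above that of control in all 4 stimulated groups. Control libraries were at 11.6, 6.27 and 5.09 FPKM, with 13.1, 8.88 and 10.1 FPKM in RANKL 4 h, and 18.7, 14.0 and 12.7 FPKM in LPS 4 h. At 72 h it was at 52.5, 14.4 and 11.5 FPKM with RANKL and at 11.6, 21.9 and 23.8 FPKM with LPS. LPS 4 h and LPS 72 h lay above all control libraries, the latter narrowly, while RANKL 72 h replicate 3 fell just inside the control range. The rise was 1.51 ± 0.47 in RANKL 72 h (log2, SE; adjusted p = 0.0273, limma) and 1.33 ± 0.47 in LPS 72 h (adjusted p = 0.0410, limma), and the difference between these groups was 0.18 with a 95% interval of -0.84 to 1.19. The first was lost without control replicate 2 (1.41), control replicate 3 (1.26) or RANKL 72 h replicate 1 (0.84), and the second without control replicate 2 (1.24), control replicate 3 (1.09), LPS 72 h replicate 2 (1.20) or LPS 72 h replicate 3 (1.14). When centred both were lost (adjusted p = 0.0638 and 0.0649), the first also with only the 2 groups in the fit (0.0892) and the second without a filter on low values (0.0603) and without a trend (0.0520). LPS 4 h missed the threshold at 1.05 (adjusted p = 0.0694, limma). Of the fits with a single library left out, it passed only without control replicate 1 (1.39, adjusted p = 0.0312). It also passed when centred (1.62, adjusted p = 0.0194), with only the 2 groups in the fit (0.0210) and with the replicate block in all 5 groups (0.0493). Leaving out replicate 1 of every group, a setting added after seeing the data, it passed at 1.23 (adjusted p = 0.000611, limma). With voom it did not pass.

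*Fbn1* encodes fibrillin-1, the backbone of the microfibrils that carry elastin and store TGF-beta (chromosome 2 from 125300594 to 125507993, minus strand). Control libraries were at 3.86, 2.96 and 1.97 FPKM and RANKL 72 h libraries at 18.9, 6.43 and 3.50 FPKM, and they overlapped through replicate 3. The other 3 groups ranged from 2.33 to 5.94 FPKM. The rise of 1.38 ± 0.48 with RANKL for 72 h (log2, SE; adjusted p = 0.0413, limma) was called in the 15 libraries, but leaving out any 1 of the control or RANKL 72 h libraries other than RANKL 72 h replicate 3 took the adjusted p to between 0.0511 and 0.172. It was lost as well without a filter on low values (adjusted p = 0.0589), when centred (0.0919) and with only the 2 groups in the fit (0.110). Without RANKL 72 h replicate 1 the estimate was 0.73.

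*Dcn* encodes decorin, a collagen-binding proteoglycan that also captures TGF-beta (chromosome 10 from 97479609 to 97518143, plus strand), and rested on 12 to 266 fragments per library. It was at 2.92, 1.43 and 0.546 FPKM in control, at 3.24, 2.75 and 1.19 FPKM in LPS 4 h and at 3.86, 6.14 and 3.26 FPKM in LPS 72 h. With RANKL it was at 2.40, 1.41 and 0.657 FPKM at 4 h and at 0.705, 1.11 and 0.282 FPKM at 72 h. LPS 72 h lay above all 12 other libraries. RANKL 72 h lay within and below the control range. The rise in LPS 72 h over control was 1.60 ± 0.59 (log2, SE) and passed narrowly (adjusted p = 0.0496, limma), and it was lost without control replicate 2 (1.64), control replicate 3 (1.02), LPS 72 h replicate 1 (1.67) or LPS 72 h replicate 2 (1.34). A pseudocount of 0.01 FPKM, no filter, centring, only the 2 groups in the fit and no trend each ended the call too, with adjusted p between 0.0581 and 0.0737. The difference between RANKL 72 h and LPS 72 h was -2.60 ± 0.59 (adjusted p = 0.00289, limma), the largest between the arms among the 10 genes, and was called under every alternative tried.

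*Lum* encodes lumican, which spaces collagen fibrils (chromosome 10 from 97565128 to 97572703, plus strand). At 0 to 29 fragments per library it gave 0.471, 0.0904 and 0 FPKM in control and 0.681, 0.427 and 0.159 FPKM in LPS 4 h. In RANKL 4 h it was at 0.374, 0.188 and 0.0238 FPKM, in RANKL 72 h at 0.296, 0.141 and 0 FPKM and in LPS 72 h at 0.204, 0.234 and 0.169 FPKM. No comparison of *Lum* was called in the fit of all libraries, and at this depth only large differences could be. The LPS 4 h difference of 1.10 (95% interval -0.34 to 2.53) became a call without control replicate 1 (1.78, adjusted p = 0.0316, limma).

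The annotation adds limits to some of these values. Another annotated gene overlaps *Spp1* on the same strand (*Gm42793*), and genes on the opposite strand overlap *Fn1* (*Apol7d*), *Thbs1* (*Gm29233*), *Tnc* (*8030451A03Rik*) and *Fbn1* (*Gm9913*). Whether the counting used strand is not given in the sources used here, so reads of such pairs may not have been told apart.

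Outside LPS 72 h, replicates with the same number deviated together, and several of the matrix genes shared their highest replicate. In the 4 groups other than LPS 72 h, *Sparc*, *Thbs1*, *Tnc*, *Bgn* and *Postn* were each highest in replicate 1, and in LPS 72 h itself each was highest in replicate 3. Their lowest replicate was not shared: in control it was replicate 3 for *Sparc* and *Bgn* and replicate 2 for *Thbs1* and *Postn*. The mean log2 level of the 18 stromal genes had the same highest replicates: replicate 1 in those 4 groups and replicate 3 in LPS 72 h. *Spp1* was lowest in replicate 1 and highest in replicate 3 in all 5 groups, the reverse of the stromal order in those 4 groups and the same order in LPS 72 h, and *Dcn* and *Lum* were lowest in replicate 3 in all 5. In RANKL 72 h the highest library was 3.14 to 6.24 times the lowest for the 6 genes that rose. For 5 of them this was the widest spread of the 5 groups, whereas *Sparc* spread further in LPS 72 h (5.21 against 4.53 times). *Spp1* differed by 1.28 times in RANKL 72 h.

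As a description over the 15 libraries (10 residual degrees of freedom after the group means), the deviations of *Bgn* and *Sparc* from their group means followed those of the stromal level with r = 0.98 and r = 0.97. The values were 0.89 for *Fbn1*, 0.86 for *Postn*, 0.83 for *Tnc*, 0.81 for *Thbs1*, 0.78 for *Fn1*, 0.75 for *Lum*, 0.58 for *Dcn* and -0.33 for *Spp1*. The link was not particular to the stromal list. Against smooth muscle and pericyte markers the same measure was 0.91 for *Sparc*, 0.90 for *Bgn* and 0.84 for *Fn1*, and against endothelial markers 0.93 for *Bgn*. Against megakaryocyte and platelet markers it was 0.82 for *Postn* and for *Lum*, against macrophage markers 0.79 for *Sparc* and 0.78 for *Bgn*, and against osteoblast markers at most 0.74 (*Bgn*). Against osteoclast markers it lay between -0.25 and 0.19 for all 10. *Dcn* and *Lum* deviated together (r = 0.92), and both opposite to *Spp1* (r = -0.74 and r = -0.80). The libraries share preparation, so these are not independent points.

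**Figure D3:**
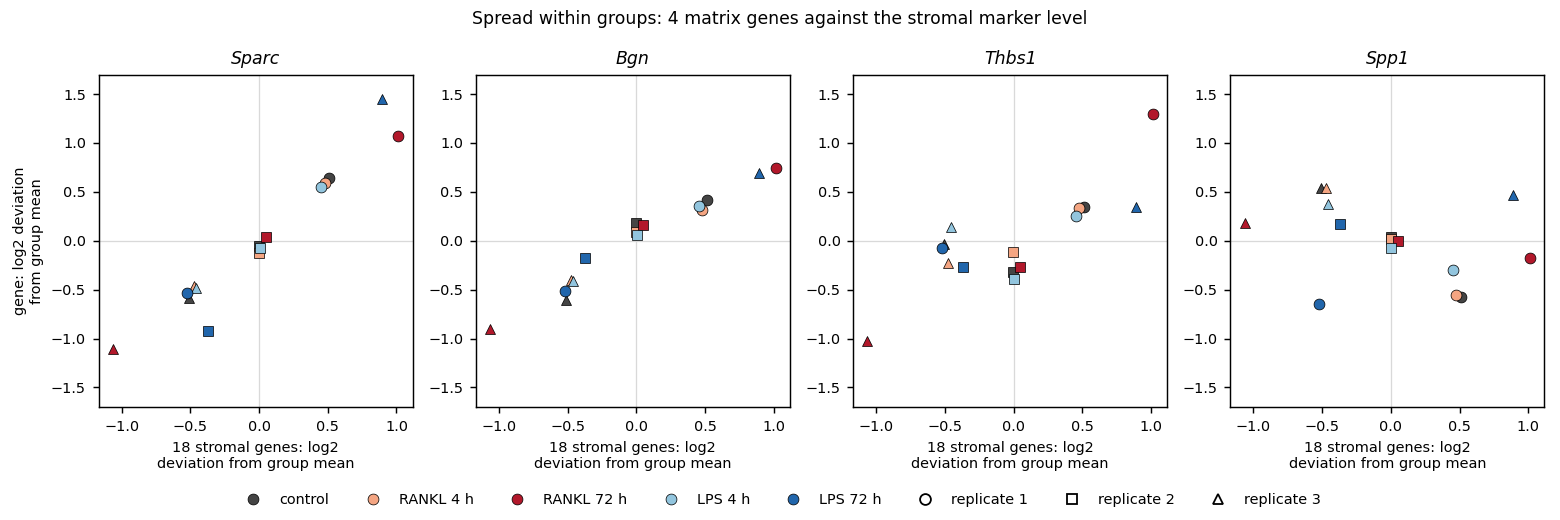
Deviation of log2(FPKM + 0.1) from the group mean for *Sparc*, *Bgn*, *Thbs1* and *Spp1* (vertical axes) against the deviation of the mean log2 level of 18 stromal genes (horizontal axes) in 15 libraries, with groups by colour and replicate numbers by symbol. *Sparc* and *Bgn* lie along a line (r = 0.97 and 0.98), *Thbs1* less closely (r = 0.81), and *Spp1* shows no such line (r = -0.33).

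The stromal level moved with the RANKL 72 h result as well. Its mean log2 value was 4.54, 3.57 and 2.46 in RANKL 72 h replicates 1, 2 and 3, against 2.63, 2.12 and 1.61 in control. Of the 18 genes behind this level, 9 (50%) were called higher in the main fit, beside 24.2% of all tested genes called. With that level as a covariate, an alternative added after seeing the data in which 27.2% of all tested genes were called in RANKL 72 h and 28.4% in LPS 72 h, the *Fn1* rise in RANKL 72 h was 1.33 (adjusted p = 0.0132, limma) and remained a call. The estimates of the others that rose were 0.04 for *Sparc*, 0.18 for *Fbn1*, 0.38 for *Tnc*, 0.52 for *Bgn* and 0.61 for *Postn*, and none of these was called (*Bgn* with an adjusted p of 0.0153 but a fold under the limit). *Thbs1* (-1.44, adjusted p = 0.00743) and *Dcn* (-1.97, adjusted p = 0.0333) were called lower. In LPS 72 h the stromal level was 1.23, 1.39 and 2.65. In the main fit 2 of the 18 genes (11.1%) were called lower there, beside 27.4% of all tested genes called. The calls of *Thbs1*, *Dcn*, *Tnc* and *Fn1* were kept there with the covariate, which added *Bgn* (0.70) and *Postn* (1.16) above and *Spp1* (-0.93) below. The covariate is built in part of matrix genes such as *Col1a1* and was itself higher in RANKL 72 h, so that this fit cannot tell more stromal cells from more RNA per cell, and the part of other cells in the RANKL 72 h result was not tested.

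Same-numbered libraries of the 4 groups other than LPS 72 h were taken as paired, because their deviations from the group means went together. The labels state no pairing, r was as low as 0.10 (replicate 2 of RANKL 72 h and LPS 4 h), and differently numbered libraries were not compared. In a fit of these 4 groups with the number as a block, also added after seeing the data, further matrix genes were called, as were more of all tested genes. The choice of these 4 groups came from the same libraries. For RANKL 72 h against control the count was 6 higher and 1 lower, beside 30.6% of all tested genes, the addition being *Dcn* (-0.9995, adjusted p = 0.0118, limma). For LPS 4 h against control it was 3 higher, beside 52.0% of all, namely *Tnc* (1.05, adjusted p = 0.00754), *Lum* (1.10, adjusted p = 0.00281) and *Dcn* (0.68, adjusted p = 0.0412). For RANKL 72 h against RANKL 4 h it was 6 higher and 1 lower, beside 29.8% of all, adding *Sparc* (1.66, adjusted p = 0.000109), *Tnc* (0.96, adjusted p = 0.0203) and *Fbn1* (1.31, adjusted p = 0.0155) above and *Dcn* (-0.98, adjusted p = 0.0133) below. For RANKL 4 h against LPS 4 h it was 3 lower, beside 53.8% of all, adding *Lum* (-0.89, adjusted p = 0.00906) and *Dcn* (-0.70, adjusted p = 0.0358). No matrix gene was called in RANKL 4 h against control in this fit either, where 0.468% of all were.

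Related genes were read from 5 further lists, beside the 24.2% of all tested genes called in RANKL 72 h and the 27.4% called in LPS 72 h. Of 21 tested glycoproteins of elastic fibres and basement membranes, 13 (61.9%) rose in RANKL 72 h, among them *Fbln2* (fibulin-2, 9.85 ± 4.73 to 42.8 ± 30.2 FPKM, SD, n = 3), *Hspg2* (perlecan, 1.91 ± 0.374 to 7.67 ± 5.64 FPKM), and the nidogens *Nid1* (3.31 ± 0.457 to 12.2 ± 7.92 FPKM) and *Nid2* (1.13 ± 0.304 to 4.08 ± 0.495 FPKM). *Nid1* is also among the 18 stromal genes. A gene was tested if its mean over all 15 libraries reached 0.1 FPKM. *Mfap5*, another of the 13, did so only through RANKL 72 h, where it was at 0.330, 0.486 and 0.145 FPKM. It was at 0 to 0.176 FPKM elsewhere, so the share of 61.9% is not free of the filter. In LPS 72 h 2 rose, *Fbln2* (to 29.2 ± 9.67 FPKM) and *Lamc1*, a laminin chain (6.06 ± 1.75 to 11.2 ± 2.82 FPKM), and 1 fell (14.3% called). Of 12 tested matricellular and related proteins other than the 10 genes, 5 (41.7%) rose in RANKL 72 h, including *Tnn* (tenascin-N, 0.645 ± 0.426 to 6.37 ± 7.04 FPKM), *Fstl1* (8.61 ± 3.66 to 32.4 ± 25.9 FPKM) and *Tgfbi* (127 ± 27.1 to 239 ± 68.7 FPKM). *Tnn* reached the mean of 1 FPKM needed for naming only through RANKL 72 h, where its libraries were at 14.4, 3.48 and 1.24 FPKM. In LPS 72 h 2 rose (16.7%), the proteoglycan gene *Srgn* (46.7 ± 14.9 to 134 ± 22.5 FPKM) and *Ctgf* (36.8 ± 18.7 to 89.1 ± 16.03 FPKM). Of 11 other small leucine-rich proteoglycans 4 were tested, and 1 was called in RANKL 72 h, *Fmod* (higher). Of 9 bone matrix and mineralisation genes 4 were tested (*Mgp*, *Ibsp*, *Alpl* and *Phospho1*), and in RANKL 72 h 0 were called by limma and 3 with unadjusted p-values. *Ibsp* was at 2.69, 43.1 and 0.963 FPKM in RANKL 72 h replicates 1, 2 and 3. In LPS 72 h *Mgp*, an inhibitor of mineralisation, and *Ibsp*, bone sialoprotein, fell (8.71 ± 5.20 to 1.80 ± 2.50 FPKM and 1.04 ± 0.550 to 0.0496 ± 0.00159 FPKM), and *Phospho1*, a phosphatase of mineralisation, rose (10.2 ± 6.96 to 26.0 ± 7.06 FPKM).

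Of 17 tested receptors of these proteins, 7 rose and 1 fell in RANKL 72 h (47.1% called, beside 24.2% of all tested genes). The integrin chains that bind osteopontin and fibronectin were among them, *Itgav* (15.005 ± 4.17 to 41.3 ± 13.3 FPKM, SD, n = 3) and *Itgb3* (9.60 ± 3.96 to 25.1 ± 11.4 FPKM), as was the syndecan *Sdc4* (21.1 ± 1.59 to 51.0 ± 4.07 FPKM), while the thrombospondin receptor *Cd36* fell (637 ± 188 to 237 ± 34.9 FPKM). In LPS 4 h 5 rose and 3 fell, a share of 47.1% that was near the 48.1% of all tested genes. *Sdc4* reached 571 ± 139 FPKM (log2 fold change 4.72, adjusted p = 3.13e-10, limma), *Tlr2*, a receptor for biglycan, went from 16.3 ± 3.70 to 381 ± 18.4 FPKM, and *Itga5*, a fibronectin receptor chain, from 32.8 ± 2.95 to 151 ± 19.2 FPKM. At LPS 72 h 4 rose and 2 fell (35.3% called, beside 27.4% of all), and *Itgb3* was at 2.09 ± 0.440 FPKM, below control. *Itga5* was also the 1 receptor gene called in RANKL 4 h, at 63.5 ± 9.89 FPKM. In RANKL 72 h the list medians (log2) were 1.45 for the 10 matrix genes, 1.78 for the 4 tested bone matrix and mineralisation genes (none of them called) and 1.49 for the 4 tested small leucine-rich proteoglycans. They were 1.26 for the glycoproteins, 1.08 for the matricellular and related proteins and 0.68 for the receptors, beside 0.16 for all tested genes.

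**Figure D4:**
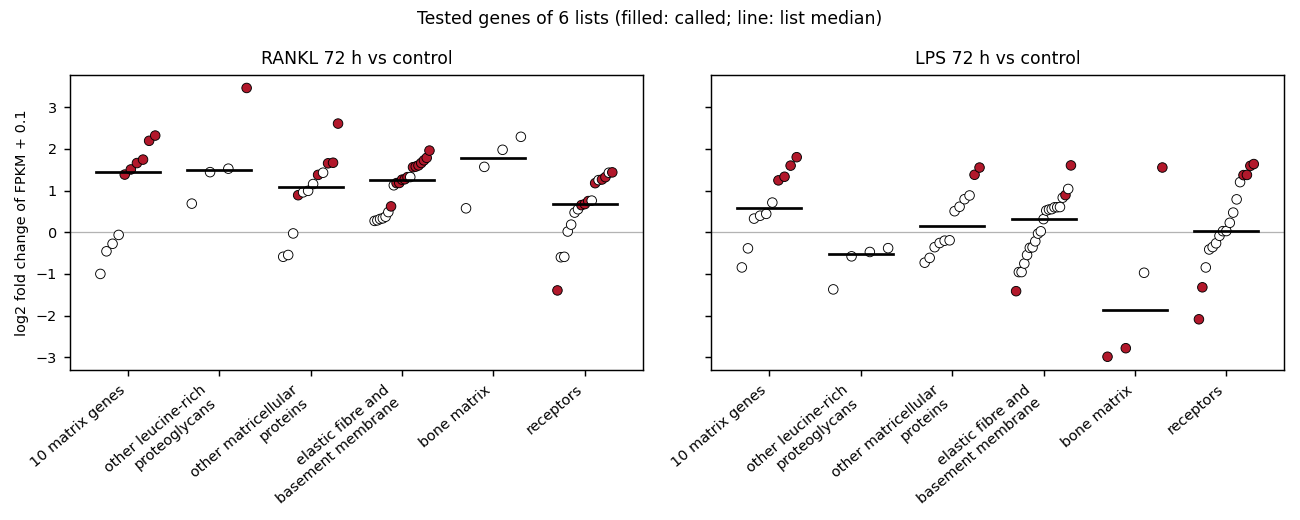
Log2 fold change of FPKM + 0.1 against control (vertical axis) of each tested gene of the 10 matrix genes and the 5 related lists, in RANKL 72 h and LPS 72 h, with filled points for called genes and a line at each list's median. In RANKL 72 h the medians are 1.45 for the matrix genes, 1.26 for the glycoproteins and 1.78 for the 4 bone matrix and mineralisation genes, and in LPS 72 h they are 0.58, 0.32 and -1.88.

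The genes whose pattern was most like each matrix gene were taken from 9477 other genes by Pearson's r of log2 values over the 15 libraries, as a description. *Sparc* was nearest to *Col1a1* (r = 0.99), *Col1a2* and *Adamts2*, and *Fn1* to *Nid1* (r = 0.97), *Col12a1* and *Antxr1*. *Postn* was nearest to *Loxl2* (r = 0.97), *Tgfb2* and *Col5a2*, and *Bgn* to *Serpinf1* (r = 0.97), *Col8a1* and *Dpysl3*. *Fbn1* was nearest to *Col8a1* (r = 0.95), *Fstl1* and *Nedd4*, and *Tnc* to *Dbn1* (r = 0.89), *Col4a2* and *Mmp2*. Collagen genes stood among the nearest 3 of 6 of the 10, and of none of the other 4: *Thbs1* was nearest to *Pilrb2* (r = 0.92), *Grem1* and *Qsox1*, *Dcn* to *Ly6i* (r = 0.94), *Slc6a13* and *H2-Q7*, *Lum* to *Svbp* (r = 0.89), *Timp1* and *Aldh1a2*, and *Spp1* to *Papss2* (r = 0.85), *Cyfip2* and *Iqgap1*.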

How the data were processed

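RNA-seq of 15 libraries of mouse BMDMs was analysed, 3 per group, grouped by the submitters' labels. The authors deposited FPKM values, 1 per gene and library, made with StringTie and Ballgown according to the methods. Builds GRCm38.p4 and mm10 are named in the submitters' processing notes, and the aligner is not given in the sources used here. The table ends part-way through the entry for *Ttk*, and later genes were not analysed here. The steps of the FPKM values gave back whole fragments (within 0.01) for all 14485 genes above 0 in at least 3 libraries, and these set the depths given. On simulated data the recovery was exact for 2823 of 2827 genes.

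Limma 3.58.1 in R 4.3.3 was applied, with a trend, to log2(FPKM + 0.1). All 5 groups entered 1 fit, and 11743 genes whose mean reached 0.1 FPKM were tested. Calls needed a fold above 1.5 or below 0.66 and a Benjamini-Hochberg adjusted p under 0.05. The study's threshold on unadjusted p was an alternative, beside others for pseudocount, filter, scaling, groups in the fit, trend, replicate block and single libraries left out. Voom on the recovered fragments, the stromal covariate, leaving out replicate 1 of every group and the block in 4 groups were added after seeing the data. The replicate numbers come from the labels. In all pairs of groups without LPS 72 h, same-numbered libraries deviated together (r of at least 0.10 for each number over 9486 genes), so they were taken as paired there, though the labels state no pairing. With LPS 72 h they did not. On simulated data the test was checked before use.

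The 10 genes and the related lists were chosen with earlier results of these data known, so counts over them are descriptions. The 10 genes are all named. From the related lists up to 4 called genes per comparison with control were named by the size of change, if their mean reached 1 FPKM, and *Fmod* was named outside that rule. Python 3.11.15, numpy 2.4.6, pandas 2.3.3, scipy 1.17.1 and matplotlib 3.10.9 were used. Promoter windows are those of RefSeq on GRCm38.p6, and gene positions those of GENCODE M21.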

Additional observations from a re-analysis of the deposited data

Results flagged for a closer look

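For 6 results the response to 1 stimulus differed between 4 h and 72 h, by the contrast of the 2 times itself (limma, adjusted over 11743 genes). With RANKL, *Fn1* was higher at 72 h than at 4 h by 2.25 on the log2 scale, *Postn* by 2.06 and *Bgn* by 1.49. With LPS, *Fn1* was higher at 72 h by 1.35 and *Thbs1* by 1.14, and *Spp1* was lower, at -0.96. When libraries were centred on the median gene the rises with LPS were 0.70 for *Fn1* (adjusted p = 0.146, limma) and 0.49 for *Thbs1* (adjusted p = 0.367, limma), and neither was called. In each of the 6 the 3 libraries of one time did not overlap with the 3 of the other. The 6 were picked by their calls in these same libraries, so this is no separate support. The share of all tested genes without overlap was not computed. Of all tested genes, 23.3% were called between the times of RANKL and 58.1% between those of LPS.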

How the results depend on the processing

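The limits below are counts of the 10 matrix genes called, with the main count in brackets, then settings that moved it by over 1.5 times. Shares of all tested genes are given above for some of these settings only, so the other counts have no background beside them. RANKL 72 h against control (6) gave 3 when libraries were centred on the median gene, 3 with only the 2 groups in the fit and 3 with the stromal covariate (1 higher, 2 lower), and 2 to 6 with single libraries left out. LPS 4 h against control (0) gave 2 when centred, 2 with only the 2 groups, 2 with the covariate, 1 with unadjusted p, 1 leaving out replicate 1 of every group, and 0 to 2 with single libraries left out. LPS 72 h against control (4) gave 2 without a filter, 2 when centred, 2 without a trend, 7 with the covariate, and 1 to 4 with single libraries left out. RANKL 4 h against LPS 4 h (1) gave 0 without a filter and 0 to 1 with single libraries left out. RANKL 72 h against LPS 72 h (4) gave 2 with only the 2 groups, 7 with unadjusted p, and 2 to 7 with single libraries left out. RANKL 72 h against RANKL 4 h (3) gave 5 with equal sums, 5 with unadjusted p, 1 leaving out replicate 1 of every group, and 1 to 5 with single libraries left out. LPS 72 h against LPS 4 h (3) gave 1 when centred and 1 to 3 with single libraries left out. The cause of these shifts was not tested. RANKL 4 h against control stayed at 0 under all 20 alternatives.

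With the replicate block in the fit of all 5 groups the counts were 7, 2, 2 and 5 for RANKL 72 h against control, LPS 4 h against control, RANKL 4 h against LPS 4 h and RANKL 72 h against RANKL 4 h. With the block in the 4 groups taken as paired they were 7, 3, 3 and 7. For LPS 72 h, whose numbers did not pair, the block in 5 groups gave 5 against control (4 higher, and *Spp1* lower), 5 against RANKL 72 h and 4 against LPS 4 h. The share of all tested genes called with the block in 5 groups is not given here, so those counts have no background.

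Of 409 recomputed values of the 21 called results, 321 kept their call and direction, 86 lost the call and 2 reversed, both with the stromal covariate in RANKL 72 h against LPS 72 h: *Bgn* to -0.18 and *Sparc* to -0.017. *Tnc*, not called there, was called lower at -1.25 with the covariate and at -0.82 leaving out replicate 1 of every group. The calls kept under every alternative were those of *Fn1* in RANKL 72 h against control and RANKL 4 h, *Thbs1* in LPS 72 h against control, and *Thbs1* and *Dcn* in RANKL 72 h against LPS 72 h. Of the 1153 values of the 59 results not called, 62 were called and 83 changed sign without a call. Depth limits *Lum* and *Dcn*, at 0 to 29 and 12 to 266 fragments.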
